A study of Homo sapiens with 4 samples.

Results

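Keratins are the proteins of the intermediate filaments of epithelial cells. A filament is built from paired chains of 2 classes, the acidic type I keratins and the basic to neutral type II keratins, and the pairs in use differ between simple epithelia, the layers of stratified epithelia and the hair follicle. In the prostate, KRT8 and KRT18 are the keratins of luminal cells, and KRT5 and KRT14 are those of basal cells. In the human genome the type II genes and KRT18 lie side by side on chromosome 12, and the other type I genes lie on chromosome 17.

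The genes were chosen by name: every protein-coding gene of the RefSeq annotation of GRCh38.p14 on chromosomes 12 and 17 whose symbol is KRT followed directly by a number. This gave 55 of the 19974 protein-coding genes on chromosomes 1 to 22 and X. They were 26 type II genes, 28 type I genes and KRT222, which was not assigned to a type here. The genes were picked out because earlier work on these peak lists had shown a difference between the factors, so peak counts at them are a description and were not tested. The chromosome 12 cluster held 27 of the genes, from 52168996 to 52952906, and the chromosome 17 cluster held 28, from 40654665 to 41624575. Keratin-associated protein genes (KRTAP) and pseudogenes were not members.

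The peaks came from ChIP-seq, in which DNA bound by a protein is recovered with an antibody and sequenced. The DU145 cells used are an established line from a human prostate cancer. TCF3, a broadly expressed basic helix-loop-helix (bHLH) factor of the E protein class, was recovered through a Myc tag, and ATOH8, a bHLH factor of the atonal family, through a Flag tag. There was 1 immunoprecipitation library and 1 input library per factor, without replicates, and no control without the tagged protein was used here. The labels do not say how the tagged proteins were expressed. The lists held 11330 TCF3 peaks and 4951 ATOH8 peaks on chromosomes 1 to 22 and X. The inputs were not analysed here, and the read depth is unknown. A peak list says where signal passed a threshold, not how much of a keratin the cells make.

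bHLH factors bind as dimers to the E-box, a short word of the form CANNTG. Promoter sequences, from 250 bases before to 50 bases after a start site, were available for 34 of the 55 keratin genes in the RefSeq table for GRCh38.p14. The 5 printed here belong to the keratin genes with a TCF3 peak whose midpoint lay within 1 kb of such a listed start. They are shown so that the position of each peak can be read against the sequence beside it. Capitals mark every CANNTG word. All 5 are on the minus strand and are written 5′ to 3′.
KRT20: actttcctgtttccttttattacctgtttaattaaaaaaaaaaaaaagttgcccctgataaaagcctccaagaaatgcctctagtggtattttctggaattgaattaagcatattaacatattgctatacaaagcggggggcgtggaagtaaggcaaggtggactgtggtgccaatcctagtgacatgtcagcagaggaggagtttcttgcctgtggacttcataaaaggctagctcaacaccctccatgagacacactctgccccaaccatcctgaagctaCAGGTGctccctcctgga
KRT10: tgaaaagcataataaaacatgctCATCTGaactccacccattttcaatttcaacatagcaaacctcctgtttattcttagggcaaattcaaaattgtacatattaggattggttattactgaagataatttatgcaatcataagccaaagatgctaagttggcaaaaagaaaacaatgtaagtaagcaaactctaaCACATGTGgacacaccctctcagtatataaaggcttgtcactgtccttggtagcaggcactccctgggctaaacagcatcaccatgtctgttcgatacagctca
KRT38: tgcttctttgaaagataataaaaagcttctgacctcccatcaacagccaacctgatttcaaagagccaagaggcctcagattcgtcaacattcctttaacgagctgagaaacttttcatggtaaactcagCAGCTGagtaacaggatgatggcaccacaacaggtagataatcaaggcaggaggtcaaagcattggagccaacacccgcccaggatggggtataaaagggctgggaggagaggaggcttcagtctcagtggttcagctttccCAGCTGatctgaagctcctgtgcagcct
KRT73: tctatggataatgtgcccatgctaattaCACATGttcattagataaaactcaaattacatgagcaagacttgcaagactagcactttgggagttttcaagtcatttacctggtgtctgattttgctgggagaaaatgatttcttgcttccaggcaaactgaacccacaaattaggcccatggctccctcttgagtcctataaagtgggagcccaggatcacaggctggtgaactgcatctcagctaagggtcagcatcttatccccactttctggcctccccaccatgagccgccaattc
KRT33B: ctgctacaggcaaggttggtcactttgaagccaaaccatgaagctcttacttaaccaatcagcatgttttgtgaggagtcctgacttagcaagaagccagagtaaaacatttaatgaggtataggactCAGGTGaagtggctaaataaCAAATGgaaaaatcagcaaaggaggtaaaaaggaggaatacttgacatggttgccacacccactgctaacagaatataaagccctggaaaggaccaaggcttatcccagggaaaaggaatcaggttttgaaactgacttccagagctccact

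These promoters lie at chr17:40885193-40885492 (KRT20), chr17:40822565-40822864 (KRT10), chr17:41440934-41441233 (KRT38), chr12:52618510-52618809 (KRT73) and chr17:41369764-41370063 (KRT33B). In 4 of the 5 genes the TCF3 peak shared no base with the printed stretch. The KRT38 peak ended 2 bp short of it, the KRT10 and KRT73 peaks 11 bp short, and the KRT33B peak began 141 bp beyond its upstream edge. The KRT20 peak shared 89 bp with the printed sequence, across the start site. The word CANNTG, which reads the same on both strands, stood 3 times in the KRT10 promoter, where a pair overlap in CACATGTG. It stood at 2 places each at KRT38 and KRT33B and at 1 place each at KRT20 and KRT73.

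TCF3 peaks lay at 19 of the 55 keratin genes (34.5%, Wilson 95% interval 23.4 to 47.7%), with the midpoint in the gene body or within 5 kb of it. ATOH8 peaks lay at 2 of the 55 (3.64%, 1 to 12.3%), KRT7 and KRT8, which both had TCF3 peaks too. Among all protein-coding genes the shares were 32.9% for TCF3 and 25.1% for ATOH8. With all listed peaks and this window, the TCF3 share at keratin genes was near that of all genes and the ATOH8 share was lower. For TCF3 the shares also stayed close at several other settings. Flanks of 10 kb gave 21 of 55 keratin genes against 36.4% of all genes, and any shared base gave 19 of 55 against 33.2%. Gene ends only gave 16 of 55 against 28.5%, and the gene body alone gave 17 of 55 against 26%. Cutting the list moved the keratin share below that of all genes. Lists of equal numbers of peaks left 5 of 55 against 16.7%, and keeping only the higher-ranked 50% left 6 of 55 against 19%. Flanks of 50 kb moved it above, to 46 of 55 against 53.7%. At 50 kb neighbouring keratin genes can share a peak. Distinct TCF3 peaks rose there from 13 to 14 at type II genes and from 8 to 13 at type I genes. The intervals cover the counting of genes only, and neighbouring genes of a cluster are not independent. Both factors were listed at 2 of the 55 genes, against 11.8% of all protein-coding genes. Neither factor was listed at 36 of the 55. Of all 19974 protein-coding genes 6566 had a TCF3 peak, 5014 an ATOH8 peak and 2364 both, which sets the number with neither.

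Keratin genes are short, with a median length of 6433 bp against 24170.5 bp for all protein-coding genes. Among the 42 keratin genes of at most 10 kb, 11 had a TCF3 peak (26.2%), against 31% of the 5658 protein-coding genes of that length. None of the 42 had an ATOH8 peak, against 19.5% of the 5658 genes. The 10 kb limit was chosen after the values were seen. Per Mb of gene and flanks, all keratin genes together had 21.1 TCF3 peaks and all protein-coding genes had 5.27. For ATOH8 these values were 3.02 and 3.16 per Mb, so by length the ATOH8 value at keratin genes was near that of all genes. With genes of at most 10 kb on both sides, TCF3 had 18.3 peaks per Mb at keratin genes and 26.5 per Mb at all, and ATOH8 had 0 per Mb at keratin genes and 14 per Mb at all. How the keratin genes stand against other genes thus depended on whether genes or bases were counted and on the length of the genes beside them.

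The 26 type II genes had 13 distinct TCF3 peaks at 12 genes (46.2%, Wilson 95% interval 28.8 to 64.5%) and 3 distinct ATOH8 peaks at 2 genes (7.69%, 2.14 to 24.1%). The 28 type I genes had 8 distinct TCF3 peaks at 7 genes (25%, 12.7 to 43.4%) and no ATOH8 peak (0%, 0 to 12.1%). The intervals of the types overlapped for both factors. Of all protein-coding genes on chromosome 12, 30.1% had a TCF3 peak and 23.1% an ATOH8 peak. On chromosome 17 these shares were 39.7% and 31.7%. KRT18, the type I gene that adjoins KRT8 on chromosome 12, had no listed peak of either factor.

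**Figure D1:**
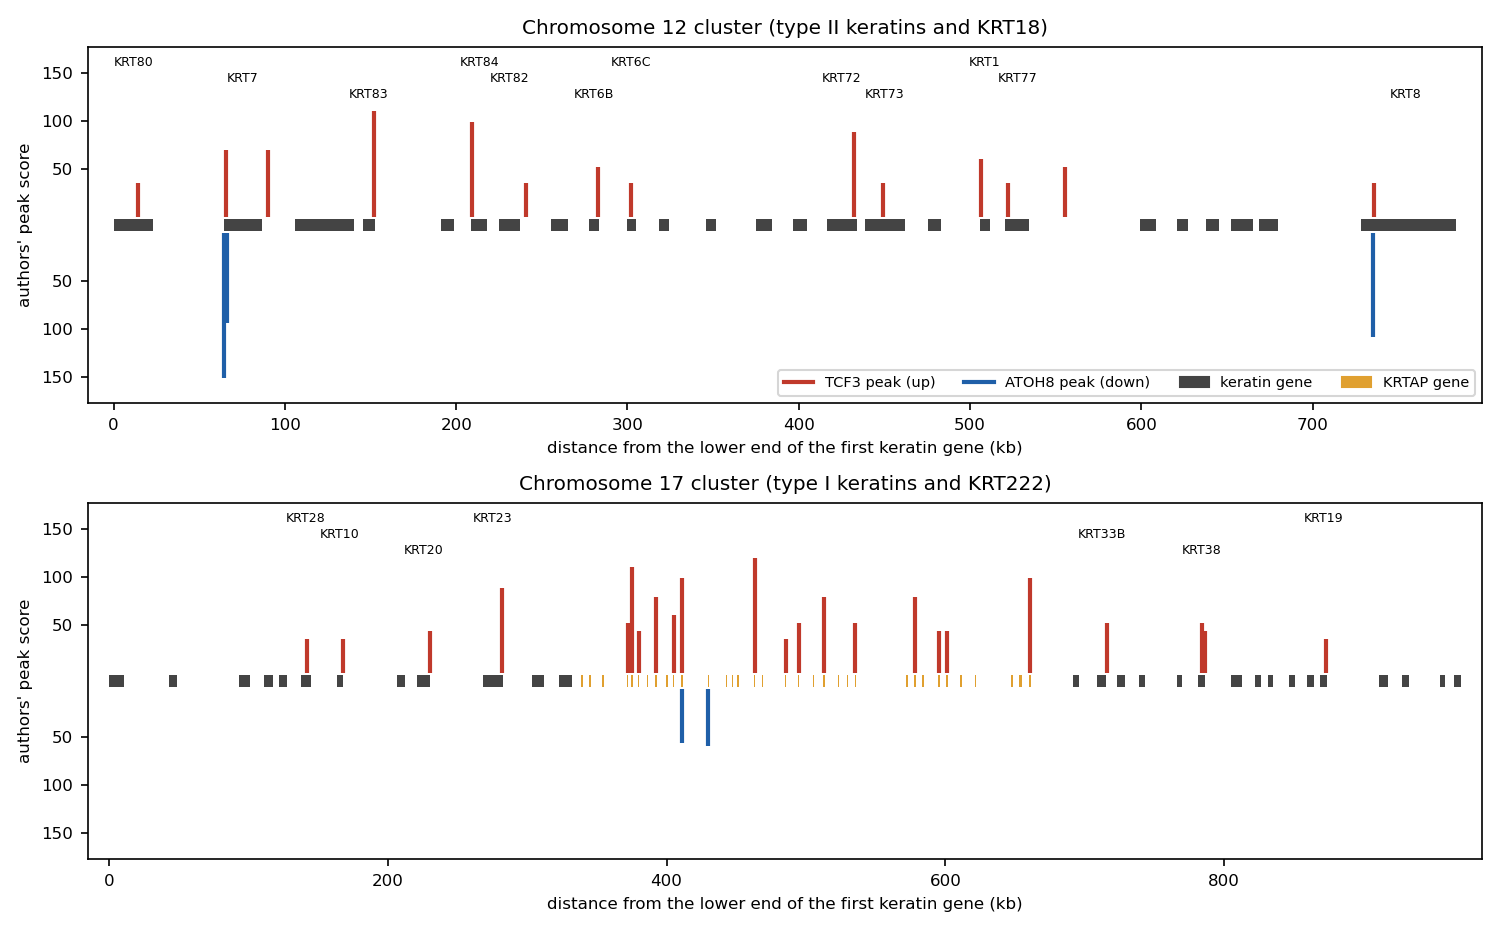
Peaks along the keratin clusters of chromosome 12 (top) and chromosome 17 (bottom). The horizontal axis is the distance in kb from the lower end of the first keratin gene, boxes are genes (dark, keratin; orange, KRTAP), and line length is the authors' peak score, upward for TCF3 and downward for ATOH8. Labels name the keratin genes with a TCF3 peak. ATOH8 lines stand at KRT7 and KRT8 on chromosome 12 and among the KRTAP genes on chromosome 17, where 15 TCF3 peaks also stand.

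The simple epithelial keratins, the class of single-layered epithelia and of luminal cells, had TCF3 peaks at 4 of 5 genes and ATOH8 peaks at 2 of 5. KRT7 (chromosome 12, 52233243 to 52255853), a type II keratin of ductal epithelia, had the most peaks. A TCF3 peak of 2194 bp with score 70 ran from 52233310 to 52235504 near the lower-coordinate end of the gene, and it was the widest at any keratin gene. It met an ATOH8 peak at each edge, at 52233039 to 52234016 with score 151 and at 52235031 to 52235663 with score 94. The TCF3 peak shared 706 bp with the higher-scoring ATOH8 peak and 473 bp with the other, and the ATOH8 peaks shared no base with each other. A further TCF3 peak, also with score 70, began 2324 bp beyond the other end of KRT7.

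KRT8 (chromosome 12, 52897191 to 52949860), the luminal partner of KRT18, had a TCF3 peak at 52904542 to 52904937 with score 36. An ATOH8 peak at 52903292 to 52904972 with score 108 contained it entirely, so all 395 bp of the TCF3 peak were shared. Both lay inside the annotated gene, with midpoints 7548.5 bp (TCF3) and 6941 bp (ATOH8) from its lower-coordinate end. From the single KRT8 start site in the promoter table they were 21729.5 bp (TCF3) and 22337 bp (ATOH8) away. The annotated gene reaches upstream beyond that start, and other KRT8 starts were not considered. The distance of these peaks from the start used in the cells is therefore unknown. Thus all 3 ATOH8 peaks at keratin genes overlapped TCF3 peaks, where 28.8% of all ATOH8 peaks did. Among TCF3 peaks at keratin genes 2 of 21 (9.52%) overlapped an ATOH8 peak, against 12.5% of the whole TCF3 list.

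The other simple epithelial keratins with a peak had TCF3 only. At KRT20, a type I keratin of the gut lining and urothelium, a peak with score 44 covered the start site and ran 476 bp into the gene. At KRT19 (chromosome 17, 41523617 to 41528308), a type I keratin that lacks the tail domain, a peak with score 36 ran from 79 to 949 bp inside the higher-coordinate end.

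No peak of either factor was listed at KRT5, KRT14 or KRT15, the keratins of the basal layer. The same held for the 6 mucosal and corneal genes KRT3, KRT4, KRT12, KRT13, KRT76 and KRT78. Among these 9 genes the nearest miss was KRT15, where the midpoint of the KRT19 peak lay 8904 bp away. Groups this small give wide intervals, up to 56.1% for 0 of 3 genes and 39% for 0 of 6, so these groups were not told apart from other keratins by their counts.

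Suprabasal keratins, made by epidermal cells once they leave the basal layer, had TCF3 peaks at 3 of 5 genes and no ATOH8 peak. KRT1, which pairs with KRT10, had a peak with score 61 in the part of the gene at its lower-coordinate end, 742 bp from that end. KRT10 had a peak with score 36 from 60 to 542 bp downstream of its start. KRT77 had one with score 36, 1743 bp from the lower-coordinate end. KRT2 and KRT9, a keratin of palm and sole skin, had none.

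The keratins induced in wounds and activated skin had TCF3 peaks at 2 of 5 genes. KRT6B had a peak with score 52 that began 123 bp inside its higher-coordinate end, and KRT6C one with score 36 near the middle of the gene. KRT6A, KRT16 and KRT17 had none. KRT6A, KRT6B and KRT6C are near-identical copies, as are some hair keratins, and the labels do not say how reads that match several copies were placed, so which copy carries a peak is uncertain.

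Hair shaft keratins, the hard keratins of the hair cortex and cuticle, had TCF3 peaks at 5 of 17 genes and no ATOH8 peak. The 2 highest-scoring TCF3 peaks at keratin genes belonged to this group. KRT83 (chromosome 12, 52314301 to 52321398) had the highest score, 110, in a peak from 9 to 544 bp inside the higher-coordinate end. KRT84 followed with score 99 at its other end, from 52377893 to 52378521. KRT38 had a pair of peaks, with score 44 from 51 to 602 bp downstream of its start and with score 52 further in, its midpoint 2051.5 bp from the start. KRT33B had a peak with score 52, its midpoint 625.5 bp upstream of the start, and KRT82 one with score 36, 3656 bp upstream.

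Inner root sheath and companion layer keratins, which form the sleeve around the growing hair, had TCF3 peaks at 3 of 9 genes. KRT72 had score 89, while KRT73 and KRT28 had score 36. Among the remaining genes, KRT23 had a TCF3 peak with score 89 and KRT80 one with score 36, while KRT24, KRT79 and KRT222 had none.

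**Figure D2:**
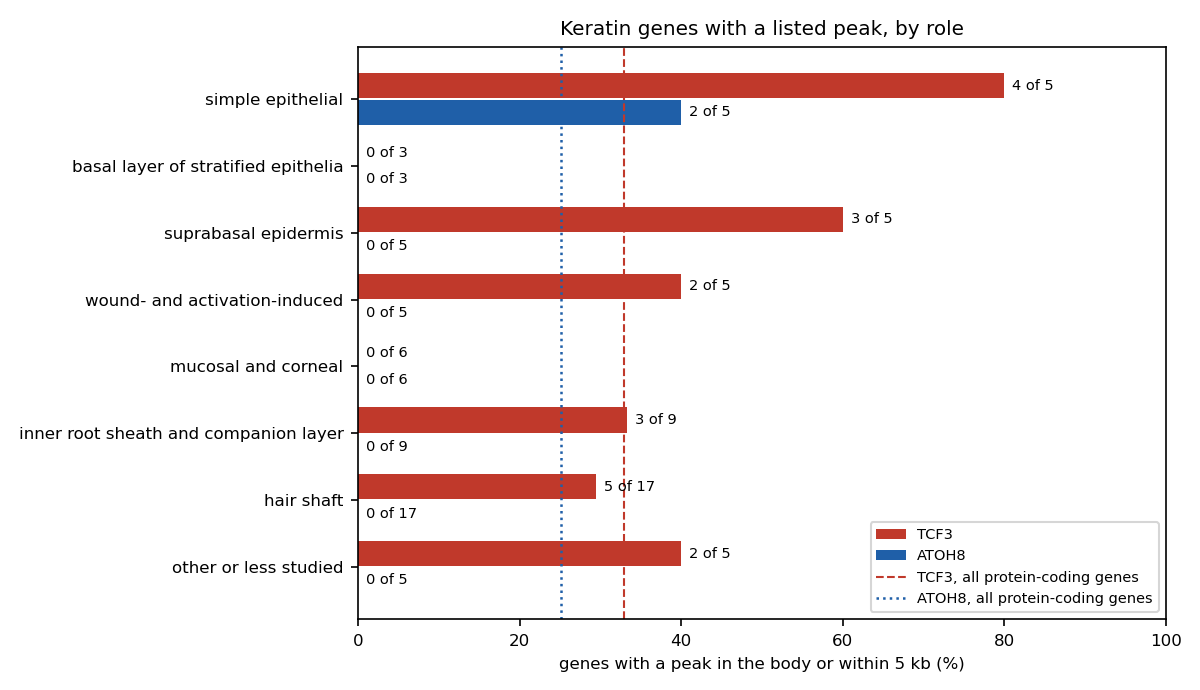
Share of keratin genes with a listed peak, by role. Bars give the percentage of genes with a TCF3 (red, upper bar) or ATOH8 (blue, lower bar) peak in the body or within 5 kb, with the counts beside them. Lines give the shares among all protein-coding genes, 32.9% for TCF3 (dashed) and 25.1% for ATOH8 (dotted). ATOH8 bars appear at the simple epithelial keratins alone, and the groups hold 3 to 17 genes.

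The 5 kb limit decided few genes. Just inside it was KRT82, with a TCF3 midpoint 3656 bp away, and just outside were KRT34 at 7230.5 bp and KRT15 at 8904 bp. No ATOH8 peak had its midpoint between 2.5 and 10 kb from a keratin gene.

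TCF3 peaks mostly lay inside the keratin genes, with 18 of 21 midpoints in a gene body, against 86% of TCF3 peaks at all protein-coding genes. Of the 18, 8 were within 1 kb of a gene end (44.4%), against 50.7% of TCF3 peaks inside all protein-coding genes. At keratin genes 6 of the 8 were at the higher-coordinate end and 2 at the lower-coordinate end. All 34 keratin genes in the promoter table are on the minus strand, so for them the higher-coordinate end is the start side. The 6 peaks, at KRT83, KRT6B, KRT10, KRT20, KRT38 and KRT19, had their outer edge between 39 bp outside and 123 bp inside the gene's end and reached 476 to 949 bp into the gene. Their midpoints were taken from within 1 kb of that end, which largely sets these positions. The KRT23 peak, just past that limit, lay 928 to 1385 bp inside the end. KRT83, KRT6B and KRT19 are not in the promoter table, so no strand was read for them. Exon positions were not used here.

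Against listed start sites, 5 TCF3 peaks at keratin genes had a midpoint within 1 kb. Of these, 3 lay wholly downstream of the start, 1 covered it and 1 lay wholly upstream. Of all TCF3 peaks within 1 kb of a listed start of a protein-coding gene, 3198 in number, 59.6% covered the start and 35.5% lay wholly downstream. For the 2830 such ATOH8 peaks the shares were 71.2% and 21.8%. With 5 keratin peaks the counts are too few to set them apart from the list.

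**Figure D3:**
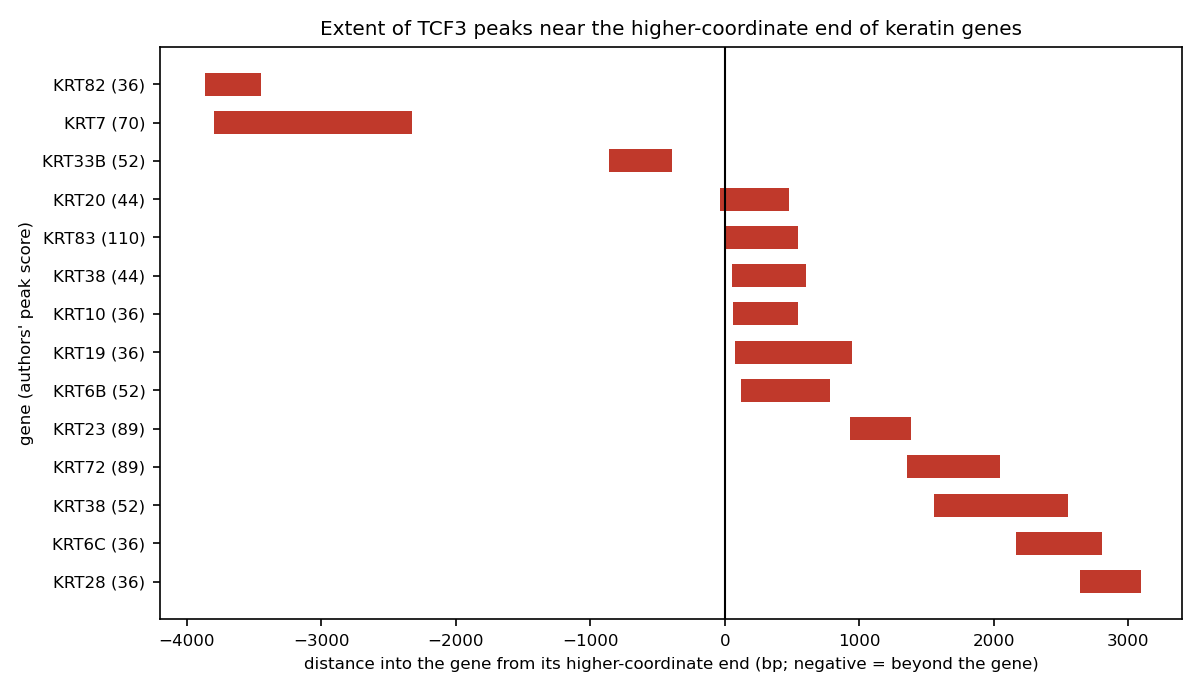
Extent of TCF3 peaks around the higher-coordinate end of keratin genes. The horizontal axis is the distance in bp into the gene from that end, which is the start side for the 34 genes with a listed strand, negative values lie beyond the gene, and the number after each gene is the authors' peak score. Peaks deeper inside a gene than that of KRT28 are not drawn. The bars of KRT20, KRT83, KRT38, KRT10, KRT19 and KRT6B begin within 123 bp of the end and stop 476 to 949 bp into the gene.

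Most TCF3 peaks at keratin genes had low scores. The authors' score of the 21 peaks ran from 36 to 110 with a median of 44, and 6 were above the list's median of 61. A score of 36 was found at 9 of the 21, against 13.5% of all TCF3 peaks, and 3 listed peaks had a lower one. The 3 ATOH8 peaks, with scores 94, 108 and 151, were all above the ATOH8 median of 84. Scores of the factors are not on a common scale. In width the TCF3 peaks had a median of 551 bp, against 718 bp in the whole list, and 3 were at least 1000 bp wide, a pair of them at KRT7 and the other at KRT80.

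**Figure D4:**
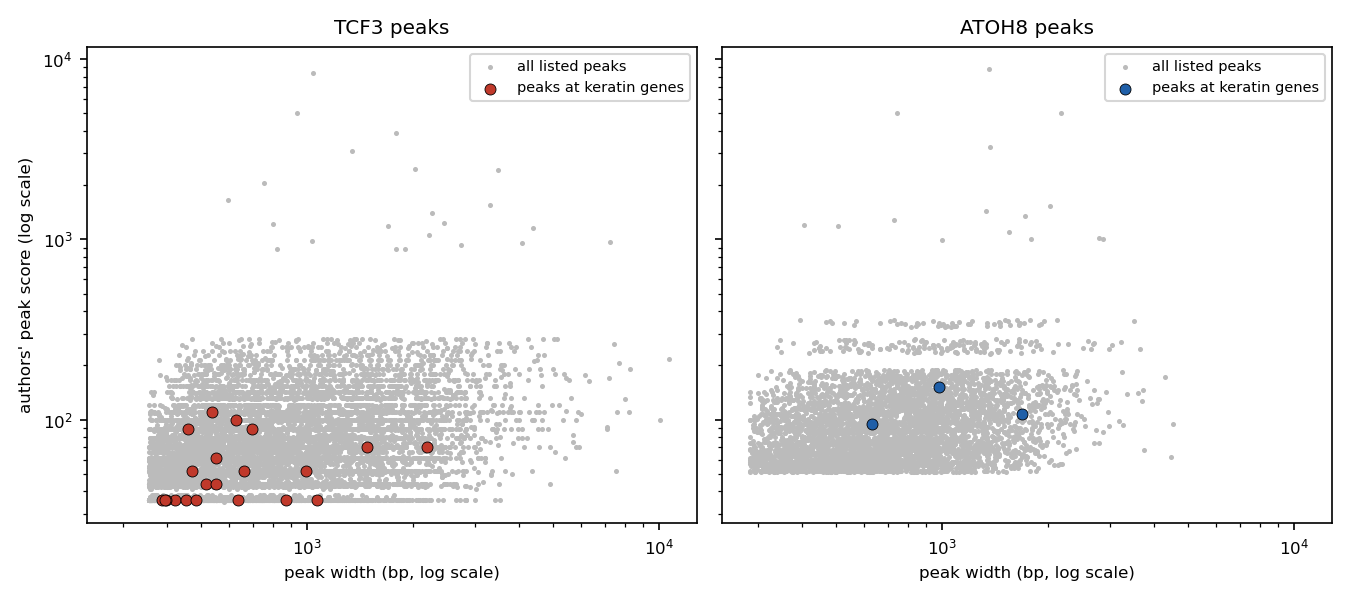
Authors' peak score against peak width in bp, both on log scales, for TCF3 (left) and ATOH8 (right). Grey points are all listed peaks on chromosomes 1 to 22 and X, and coloured points are the 21 TCF3 and 3 ATOH8 peaks at keratin genes. The TCF3 points lie between 36 and 110, many on the lowest band of scores. The empty bands, such as 280 to 887 for TCF3, are scores for which no peak was analysed here.

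Peaks were also counted over the whole span of each cluster with 5 kb on each side. On chromosome 12 the span held 14 TCF3 peaks, 17.6 per Mb (exact Poisson 95% interval 9.64 to 29.6), against 4 per Mb over the chromosome. It held 3 ATOH8 peaks, 3.78 per Mb (0.779 to 11), against 1.61 per Mb. On chromosome 17 there were 23 TCF3 peaks, 23.5 per Mb (14.9 to 35.2), against 6.92 per Mb, and 2 ATOH8 peaks, 2.04 per Mb (0.247 to 7.37), against 4.24 per Mb. These intervals cover counting only, and the chromosome values include regions with few genes.

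On chromosome 17 most of the peaks in the span were not at keratins. KRTAP genes, which encode the matrix proteins that embed hair keratin filaments and are short genes in the middle of the cluster, held 15 of the 23 TCF3 peaks, and every midpoint lay inside a KRTAP gene. Each covered 44.9 to 89% of its gene, with scores of 36 to 120 and a median of 61. The highest were at KRTAP4-11 (score 120) and KRTAP1-4 (score 110). Both ATOH8 peaks of the span lay in KRTAP genes, KRTAP4-7 (score 60) and KRTAP2-4 (score 56). A TCF3 peak with score 99 stood at KRTAP2-4 as well. Many KRTAP genes are near-identical copies of each other, with the same limit on read placement.

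A TCF3 peak was listed at 19 of the 55 keratin genes and at 32.9% of all protein-coding genes, so most genes had none. How often neighbouring genes elsewhere lack a peak together was not counted. Shorter runs aside, runs of 4 or 5 neighbouring keratin genes had no TCF3 peak. On chromosome 12 these were KRT6A, KRT5, KRT71 and KRT74, neighbours over 86.7 kb, and KRT76, KRT3, KRT4, KRT79 and KRT78 over 80.8 kb. On chromosome 17 the genes from KRT222 to KRT27, 5 in number, spanned 128 kb without one, and those from KRT32 to KRT15, also 5, spanned 59.4 kb. KRT9, KRT14, KRT16 and KRT17 at the upper end of that cluster followed over 58.7 kb.

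The promoter sequences were compared as a set. CANNTG stood in 33 of the 38 listed promoters of keratin genes (86.8%), against 65.1% of the 22132 listed promoters of protein-coding genes. Among keratin promoters it stood in 7 of 9 whose gene had a TCF3 peak and in 26 of 29 whose gene had none. CAGCTG, the same on both strands, stood in 8 of 38 (21.1%) against 18% of all. CACCTG, on either strand, also stood in 8 of 38, against 20% of all. Both words match CANNTG, so these counts overlap with the count above. TATAAA, on either strand and searched after the sequences had been seen, stood in 21 of 38 (55.3%), against 9.46% of all. Of the printed promoters, KRT10, KRT38, KRT73 and KRT33B hold it and KRT20 does not. Several promoters of 1 gene can overlap, and a word in a window is not a bound site.

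Genes that work with keratins were set beside them, each by its count and against the same shares of all genes, 32.9% for TCF3 and 25.1% for ATOH8. Transcription factors of epidermis and hair had TCF3 peaks at 16 of 18 genes and ATOH8 peaks at 5. The highest TCF3 scores among the 18 were at GRHL1 (190), a grainyhead-like factor of epithelia, GATA3 and LHX2 (both 131). The highest ATOH8 scores were at KLF4 (1021), a factor of the epidermal barrier, TFAP2A (140) and PRDM1 (93). Non-keratin intermediate filament genes had TCF3 peaks at 8 of 15, led by the nuclear lamin gene LMNA (135), SYNM (97) and NES (84). ATOH8 peaks lay at 4 of the 15, led by LMNB1 (273), BFSP1 (121) and the vimentin gene VIM (83).

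Desmosome genes, which encode the junctions that keratin filaments attach to, had TCF3 peaks at 3 of 15 and ATOH8 peaks at 6 of 15. TCF3 scores were highest at DSP (109), the linker to keratin filaments, DSG2 (69) and JUP (43), and ATOH8 scores at DSG2 (232), DSP (180) and PKP2 (171). Hemidesmosome genes, for the anchors to the basement membrane, had TCF3 peaks at 2 of 9, DST (143) and ITGB4 (36), and ATOH8 peaks at 5 of 9, with DST (165), CD151 (162) and PLEC (130) highest. KRTAP genes of all chromosomes had TCF3 peaks at 48 of 94, with KRTAP13-3 and KRTAP13-4 (both 227) and KRTAP13-1 (141) highest, and ATOH8 peaks at 2 of 94. The ATOH8 shares were thus 3.64% of keratin and 2.13% of KRTAP genes, 26.7% of non-keratin intermediate filament genes, 27.8% of the transcription factor genes, 40% of desmosome and 55.6% of hemidesmosome genes. The lists also differed in median gene length, which was 6433 bp for keratin genes, 828.5 bp for KRTAP genes, 12342 bp for the other intermediate filament genes, 22258.5 bp for the transcription factor genes, 43582 bp for desmosome genes and 61593 bp for hemidesmosome genes. The part of length in these shares was not tested. These differences were not tested.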

How the data were processed

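Formaldehyde at 1% was applied to the DU145 cells for 10 min before sonication, per the labels' protocols. The deposited lists hold a position and the authors' score for each peak, which was used within a list only. Lists were matched to factors by name. The build is hg38, per the submitters' processing notes. How reads were aligned and peaks called, and whether the input entered, is not stated in the labels or headers.

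Both lists have lines without a peak, some beside jumps in score. Scores jumped from 887 to 280 (TCF3) and from 996 to 356, 326 to 280 and 232 to 189 (ATOH8), and peaks with scores between, if any, were not analysed here. A gene with no listed peak may still be bound.

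Genes came from RefSeq for GRCh38.p14, which has the coordinates of hg38 on the main chromosomes. A peak belonged to a gene when its midpoint lay in the gene or within 5 kb. Whether list coordinates count from 0 or 1 is not given, so distances may be off by 1 bp. Assignment was tested on simulated data (200 of 200 planted peaks recovered). With 1 library per factor no test was made. Members and gene lists were chosen with earlier results of these data known. Named genes are every keratin gene with a peak and the 3 highest-scoring genes per related list and factor, while keratin genes without a peak are named in groups. Some items of the related lists are not reported here. Alternatives were other windows, shared bases, peak ranks and members. Tables were handled in pandas 2.3.3 and numpy 2.4.6 under Python 3.11.15, intervals came from scipy 1.17.1 and plots from matplotlib 3.10.9.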

Additional observations from a re-analysis of the deposited data

How the results depend on the processing

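No paired analysis was possible because each factor had 1 library and no test was made. The 19 keratin genes with a TCF3 peak became 46 with 50 kb on each side (53.7% of all genes), 6 with the higher-ranked 50% of peaks (19% of all genes) and 5 with equal numbers of peaks (16.7% of all genes). The equal number was 4951 peaks, the whole ATOH8 list, so the ATOH8 count of 2 genes could not change there. The 13 distinct TCF3 peaks at type II genes became 14 with 50 kb, where neighbouring genes can share a peak, and 6 and 5 at the last 2 settings. The 8 at type I genes became 1 at both, and 13 with 50 kb. With 50 kb, 5 of 55 keratin genes had an ATOH8 peak, against 43.6% of all genes, with 5 type II peaks and 1 type I peak. Within 5 kb of a gene end only, 1 of 55 had an ATOH8 peak, against 22.7% of all genes. With the higher-ranked 50% of peaks, cluster density was 7.56 (chromosome 12) and 8.16 (chromosome 17) per Mb for TCF3 and 0 per Mb for ATOH8 on chromosome 17. The densities of whole chromosomes given above use all listed peaks, so these cluster values cannot be set against them. The other alternatives (gene body only, 1 kb, 10 kb, shared bases, top 1% of scores left out, without KRT222 and KRT18) kept each count within 1.5 times. The TCF3 counts thus rest largely on low-scoring peaks, whose error is unknown without replicates or depth.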
